A study of Caenorhabditis elegans with 4 samples.

Results

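Chromosome II of *Caenorhabditis elegans* carried 231 of the 1967 RNA polymerase II (Pol II) sites in a combined peak list from fed first-stage (L1) larvae. The sites described here are every line of that list that names chromosome II, with no filter on width or strength. Each line gives a start, an end and a q-value from the peak caller PeakSeq, on the worm genome build WS180 named in the file header. The study holds 4 samples, 2 of Pol II chromatin immunoprecipitation followed by sequencing (ChIP-seq) and 2 of input chromatin, and how the 2 replicates were combined into the list is not given in the sources used here. All 4 came from wild-type N2 hermaphrodites grown at 20 °C on HB101 bacteria, collected as fed L1 larvae and fixed with 2% formaldehyde. The antibody was the mouse monoclonal 8WG16 against the C-terminal repeat of the largest Pol II subunit, and whole larvae were used, so every site is an average over all tissues. The general protocol text also speaks of embryos and of a serum against GFP, and the stage and antibody given here are those in each sample's own labels. The list holds 1 combined q-value per site and no value for a single sample, so there is no replicate error for any site, the sequencing depth behind it is unknown, and no test between samples or chromosomes was made.

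Pol II transcribes protein-coding genes and many small nuclear RNA genes, and ChIP-seq with an antibody to its repeat domain recovers DNA that the enzyme occupies, both near gene starts and along transcribed genes. A site in such a list is a stretch where ChIP reads exceeded input reads, and its width can follow the length of DNA occupied, the length of the gene, or the merging of neighbouring occupied stretches by the caller. The autosomes of *C. elegans* have no single centromere and are usually divided into a gene-dense central region with little recombination and 2 arms that recombine more and hold more repeats. The division used below is purely geometric, and the genetic borders of arms and centre were not used here.

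The sites of chromosome II spanned 15.2 Mb, from the first base of the first site at position 21560 to the last base of the last site at 15224179. They lay at 15.2 sites per Mb and together covered 392 kb, or 2.58% of that span. Chromosomes III, IV, V and X, pooled as background, held 875 sites at 12.9 per Mb that covered 2.67% of their spans. Each span ran from the first to the last site, and that of X began at 1010457. Chromosome II thus had more sites per Mb than the pooled background, with a slightly smaller covered share. The 4 background chromosomes themselves ranged widely, at 15.2 sites per Mb on III, 18.3 on IV, 10.5 on V and 8.30 on X, so II lay within their range. Chromosome I held 861 sites, at 57.3 per Mb and with a median width of 498 bp, and was not part of the background. Its sites stayed in the whole list by which sites are ranked below, and they included 62 of the 196 strongest.

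Sites on chromosome II were narrower than those of the background. Their median width was 970 bp, with the middle 50% between 486 and 2324 bp and a maximum of 11059 bp. The pooled background median was 1292 bp, and the single medians were 1258 bp on III, 1077 bp on IV, 1490 bp on V and 1660 bp on X. All 4 exceeded that of II. On II the lowest q-value was 1.64e-213, the highest 0.00995 and the median 2.01e-05. Sites with a q-value below 1e-50 made up 9.96% on II and 9.14% in the background, and those below 1e-10 made up 32.5% on II and 32.9% in the background. Over the whole list, however, the sites of II ranked lower, with a median rank of 1011 on II and 876 in the background (rank 1 is the strongest). The stronger 983 sites of the list made up 47.6% of the sites of II, against 53.8% on III, 51.4% on IV, 59.2% on V and 57.2% on X. Chromosome II thus held a like share of very strong sites and a larger share of weak ones. Within those stronger 983 sites the median width on II was 2298 bp, which was 0.928 times that of the background, against 0.751 times over all sites.

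The layout along chromosome II was one-sided. Cutting the span into 3 equal parts of 5.07 Mb put 28 sites (12.1%) in the left part, 117 (50.6%) in the middle part and 86 (37.2%) in the right part. In the background the same division put 26.4% of the sites in the left, 50.1% in the middle and 23.5% in the right parts. The middle share of II was thus like that of the pooled background. The single middle shares differed, at 53.4% on III, 45.0% on IV, 61.9% on V and 37.7% on X. The right part of II held 3.07 sites for each site in its left part. That ratio of right over left was 1.43 on III, 0.660 on IV, 0.930 on V and 0.911 on X. By covered bases instead of sites the ratio on II was 2.74. The median position of the sites of II lay at 58.6% of the span, against 51.9% on III, 48.2% on IV, 51.4% on V and 42.4% on X.

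**Figure D1:**
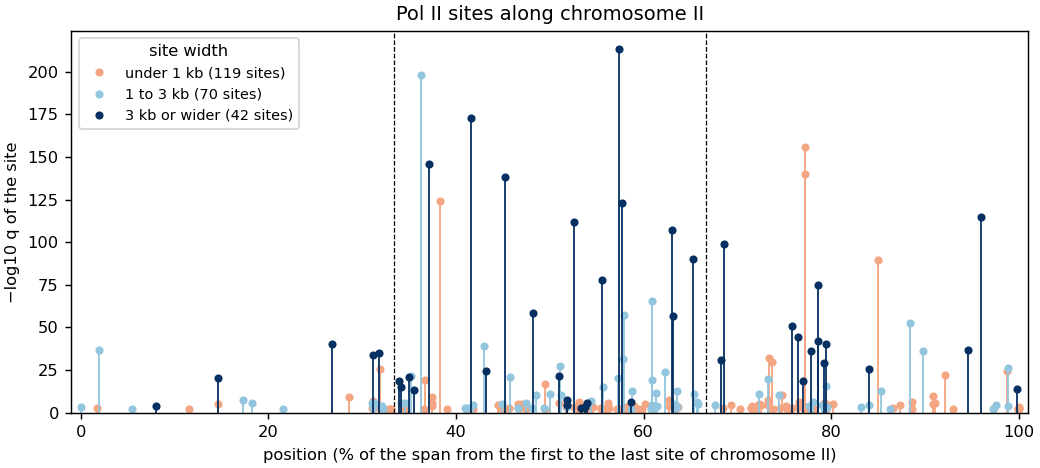
Each point is 1 of the 231 Pol II sites of chromosome II, placed by its position as a percent of the span of sites (x axis) and by the −log10 of the authors' q-value (y axis), and coloured by width. Dashed lines mark the borders of the 3 equal parts, which hold 28, 117 and 86 sites, and the left part has few points at any height.

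The map of all 231 sites by position and strength shows a nearly bare left flank, a crowded middle and a right part that stays occupied up to the end. Density was 5.53 sites per Mb in the left part, 23.1 in the middle and 17.0 in the right. Covered bases were 0.943%, 4.21% and 2.59% of those same parts. The median width was 1246 bp on the left, 1138 bp in the middle and 810 bp on the right, so the right part held many sites but smaller ones. The middle part held 54.4% of all covered bases of II.

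In 10 equal parts of the span the counts from left to right were 5, 5, 3, 32, 31, 46, 28, 48, 13 and 20. The first 3 of these parts held 13 sites, and the 4th alone held 32, so the change came within a single step. The 6th and 8th were the fullest, with 19.9% and 20.8% of the sites of II, and the 7th between them held 12.1%. Counts dropped again in the 9th, and the last held 8.66%, 4 times as many sites as the first.

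**Figure D2:**
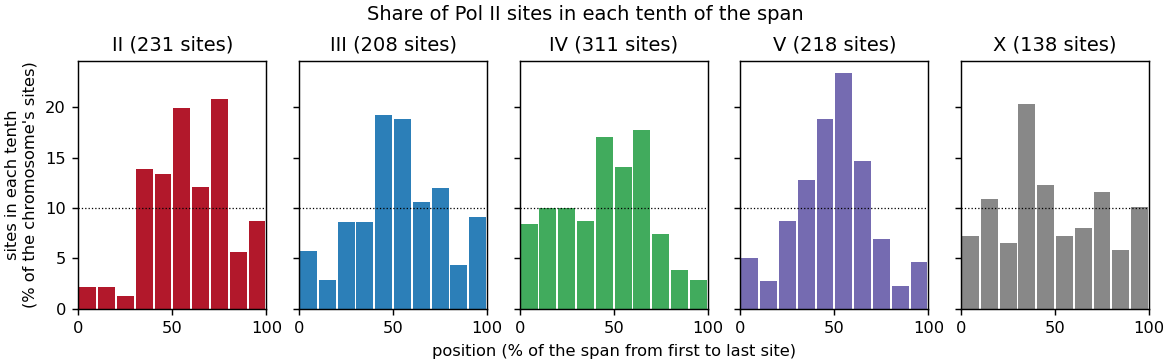
Bars give the percent of a chromosome's Pol II sites (y axis) in each of 10 equal parts of its span of sites from left to right (x axis), in 1 panel each for chromosomes II, III, IV, V and X; the dotted line is an even share of 10%. On II the first 3 parts hold 2.16%, 2.16% and 1.30%, and the 8th holds 20.8%.

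The panels of site share by position show low shares at the left end of II that are not matched at its right end. The left 4 Mb of II held 11 sites (2.75 per Mb) and the right 4 Mb held 68 (17.0 per Mb). The same outer windows held 33 and 51 sites on III, 64 and 30 on IV, 16 and 14 on V, and 29 and 24 on X. All windows were counted from the first and last site, so on X the bases before 1010457 were left out. By these windows chromosome V was thus sparse at both ends, II at its left end alone. The right window of II was uneven, however, as it took in most of the full megabase from 11000001 to 12000000, with 33 sites. The megabases that start at 12000001, 13000001 and 14000001 held 15, 10 and 7 sites. The 9th and 10th of the 10 equal parts held 5.63% and 8.66% of the sites, under an even share of 10% but above each of the first 3 parts. The left window of II covered 0.534% of its bases with sites and the right window 2.71%. The left window included 1 of the strongest 10% of sites of the whole list and 2 sites of 3 kb or more, and the right window included 12 of each.

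The 11 sites of the left end were spread thinly, and 6 of them were outside the stronger 983 sites of the list. The first, at II:21560-22684, was 1125 bp wide with a q-value of 4.37e-04. The strongest was the third, a 2539-bp site at II:319409-321947 with a q-value of 1.30e-37, rank 191 of the list. The widest was a 4565-bp site at II:2233342-2237906 with a q-value of 5.97e-21. That site and a 946-bp site 5.64 kb to its right were the only neighbours less than 10 kb apart in these first 4 Mb. The next strong site came at II:4090816-4094763, 3948 bp wide with a q-value of 5.27e-41, with 787 kb free of sites on its left and 277 kb on its right. Sites became frequent from II:4727014 on, just before the first large group.

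Sites were also counted by whole megabases and by windows of 100 kb, each site with its whole width in the window of its midpoint. The fullest megabase was 8000001 to 9000000, with 36 sites of 67.9 kb in all (6.79%), 8 of them 3 kb or wider and 5 among the strongest 10% of the list. Next came 11000001 to 12000000, with 33 sites covering 43.4 kb (4.34%), 6 of them strong. The megabase between 10000001 and 11000000 held 13 sites with a median width of 585 bp, which separates the central crowd from a second crowd in the right part. The emptiest was 3000001 to 4000000, with 1 site of 1782 bp and a q-value of 0.00849. The stretch from 13000001 to 14000000 held 10 sites, none of them 3 kb or wider, covering 0.946% of its bases.

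In windows of 100 kb, 59 of 151 windows on II (39.1%) held no site, and the pooled background share was 43.2%. The share without a site was 33.1% on III, 32.5% on IV, 49.0% on V and 55.2% on X, again with II inside the range. The window of II with most sites was 12000001 to 12100000, with 8 sites of 14.5 kb in all. The window with most bases in sites was 9600001 to 9700000, with 7 sites of 20.0 kb in all. By contrast the window from 14600001 to 14700000 was credited with 11.1 kb from 1 site, the widest of the chromosome.

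Spacing on II mixed very short with very long gaps. The 230 gaps between neighbouring sites had a median of 23.1 kb and a mean of 64.4 kb, with a standard deviation (SD) over gaps of 107 kb. The shortest gap was 211 bp and the longest 787 kb. The background gaps had a median of 32.6 kb, and the single medians were 26.5 kb on III, 21.0 kb on IV, 42.8 kb on V and 55.9 kb on X. The SD was 1.67 times the mean on II and 1.60 times in the background.

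**Figure D3:**
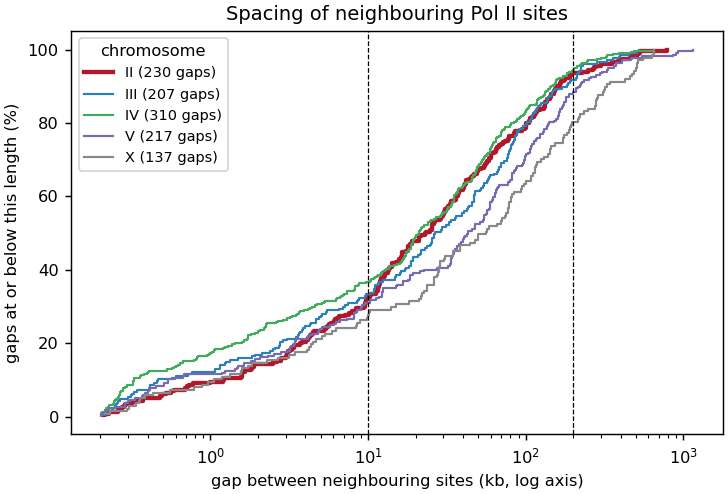
Lines give the cumulative percent of gaps between neighbouring Pol II sites (y axis) against the gap in kb on a log scale (x axis) for chromosomes II, III, IV, V and X, with dashed lines at 10 and 200 kb. On II 32.2% of gaps are under 10 kb, and its median of 23.1 kb lies between 21.0 kb on IV and 26.5 kb on III.

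Of the gaps of II, 21 (9.13%) were under 1 kb, against 13.4% in the background. The single shares were 12.1% on III, 17.4% on IV, 11.5% on V and 9.49% on X. Gaps under 10 kb made up 32.2% on II and 33.1% in the background, and gaps of 100 kb or more made up 21.3% on II and 23.5% in the background. At these 2 limits II was thus near the pooled background. The single chromosomes were spread more widely, with gaps under 10 kb making up from 27.7% on X to 36.8% on IV. Gaps under 1 kb were rarer on II than in the pooled background, and almost as rare on X. No gap on these 5 chromosomes was under 202 bp. Whether the caller joined sites nearer than about that distance is not given in the sources used here. Successive gaps on II were weakly alike, with a Spearman correlation of 0.151 between a gap and the next one along the chromosome, over gaps that share the sites between them.

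An empty stretch was taken as a gap of 200 kb or more. Chromosome II had 15 of them, which made up 6.01 Mb or 39.5% of its span, and the background chromosomes had 86 that made up 46.3% of theirs. Per 10 Mb that is 9.87 on II and 12.6 in the background. For gaps of 100 kb or more the order was the other way, with 32.2 per 10 Mb on II and 30.1 in the background. The empty share was 38.1% on III, 31.6% on IV, 50% on V and 63.3% on X.

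Of the 15 empty stretches of II, 10 lay in the left part of the span (4.50 Mb in all), 2 in the middle (0.527 Mb) and 3 in the right (0.981 Mb). The longest ran from 3304042 to 4090815 (787 kb). It was followed in length by 1236868 to 1771280 (534 kb), 321948 to 846083 (524 kb) and 2794975 to 3302259 (507 kb). The fifth longest ran from 1771293 to 2233341 (462 kb), and its left border is a 12-bp site with a q-value of 0.00441. Without that 12-bp site the second and the fifth would be one stretch. The longest outside the left part, from 12209262 to 12670966, was also 462 kb, and it cut the right part just after its fullest window. In the middle part the stretches ran from 5952496 to 6252054 and from 9706448 to 9933611.

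Close groups were rarer than pairs and single sites. With a group defined as 3 or more sites whose gaps are each under 10 kb, II had 15 groups holding 57 sites (24.7%), against 25.9% of the background sites. The share was 31.2% on III, 31.5% on IV, 23.4% on V and 9.42% on X. With sites under 500 bp apart joined first, the share on II became 1.35 times that of the background, and groups drawn with gaps under 5 or under 20 kb held 1.03 and 1.17 times the background share. Among the stronger 983 sites alone, groups held 2.73% of the sites of II (3 of 110) and 11.9% of those of the background (57 of 480), a ratio of 0.230. The order of II and the background in this measure was therefore not stable. On II, 110 sites (47.6%) had no neighbour within 10 kb, against 45.7% in the background, and a further 64 sites formed 32 pairs. Of the 15 groups 9 had 3 sites, 3 had 4, and 1 each had 5, 6 and 7. By position 1 group lay in the left part, 7 in the middle and 7 in the right.

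**Figure D4:**
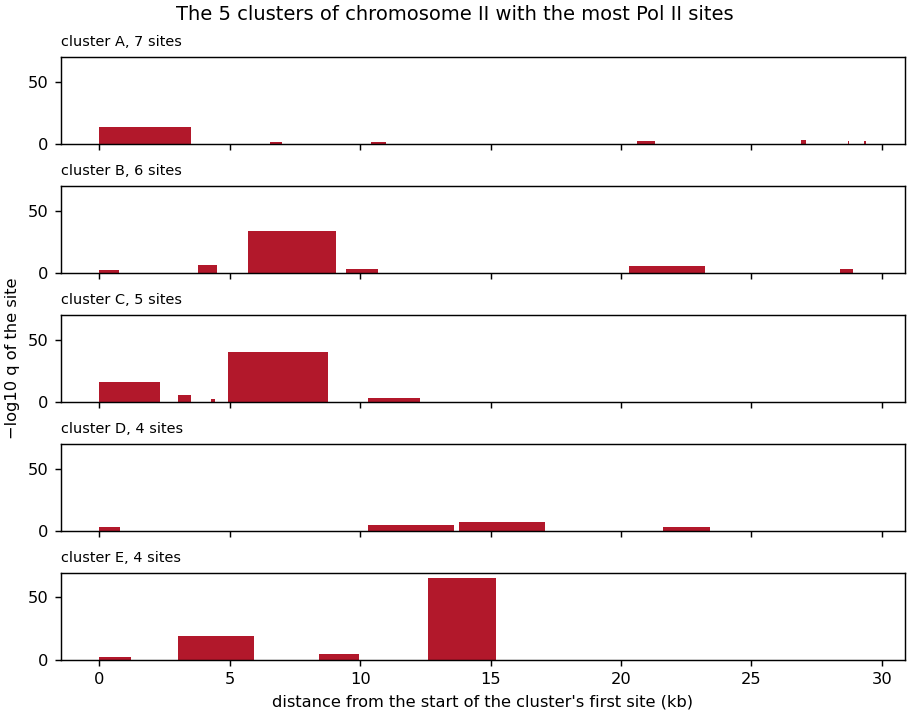
Bars show the sites of the 5 largest groups on chromosome II, 1 panel per group. They are placed by distance in kb from the start of the group's first site (x axis), with −log10 of the authors' q-value as height (y axis). The group of 7 sites at the right end is made of mostly short, low bars over 29.4 kb, and the group of 5 sites fills 71.5% of 12.3 kb.

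The plot of the 5 largest groups shows that they differed in make-up. The largest, with 7 sites over 29.4 kb at II:15194738-15224179, closed the chromosome's list. Its first site was 3514 bp wide with a q-value of 1.09e-14, and the other 6 were 44 to 698 bp wide with q-values of 2.64e-04 to 0.00971. Sites covered 19.2% of it, so this group was long and sparse, and its last members were a 44-bp and a 137-bp site.

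The group of 6 sites at II:4741483-4770347 spanned 28.9 kb and was 32.5% covered. Its strongest member was 3387 bp wide at II:4747185-4750571, with a q-value of 1.42e-34. It was the single group of the left part, and it stood where the density of sites changed. The group of 5 at II:12091934-12104269 was the most compact of the 5, with 71.5% of 12.3 kb covered and a strongest q-value of 4.17e-41 at a 3819-bp site. The 2 others had 4 sites each. One, at II:7877559-7900924, was 39.1% covered with a lowest q-value of 3.87e-08, and it held the closest pair of the chromosome, sites of 3277 and 3275 bp only 211 bp apart. The other, at II:9270840-9285996, was 54.0% covered and ended in a 2531-bp site with a q-value of 1.83e-66.

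Sites in groups were not stronger or wider than the others. Sites with no neighbour within 10 kb had a median width of 1098 bp, paired sites 947 bp and grouped sites 836 bp. The strongest 10% of the list made up 15.5% of the lone sites, 10.9% of the paired and 12.3% of the grouped. Sites of 3 kb or more made up 18.2%, 21.9% and 14.0% of these classes in the same order. Grouped sites thus had the lowest median width of the 3 classes, and their share of strong sites lay between those of the other classes. Across the 230 neighbouring pairs the Spearman correlation of widths was -0.0219, and that of list ranks was -0.0545, over pairs that share their sites with the next pair. Among the 74 pairs closer than 10 kb the correlation of widths was 0.152, against 0.315 on III, 0.123 on IV, 0.0831 on V and 0.141 on X. In the median pair under 10 kb the wider site was 2.70 times as wide as its neighbour, and in the median pair farther apart 2.74 times.

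Of the 196 strongest sites of the list (its strongest 10%), 31 lay on II, which is 13.4% of its sites against 11.8% in the background. By the 3 equal parts of the span 2 of the 31 were on the left, 16 in the middle and 13 on the right. The median distance from one strong site to the next was 285 kb. Of the 31, 9 had another strong site within 50 kb, and 4 had one within 10 kb. Such distances depend on the number of strong sites, and they were not computed for the background. The longest run without a strong site was 3769 kb, from the site ending at 321947 to the one starting at 4090816, both described above.

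The strongest site of II was a 6169-bp stretch at II:8741933-8748101, with a q-value of 1.64e-213, rank 14 of the list. The next was far narrower, 1159 bp at II:5543296-5544454, with a q-value of 3.18e-199. After it came a 4784-bp site at II:6344733-6349516 with 7.96e-174, and then a 970-bp site at II:11756278-11757247 with 2.52e-156. Broad and compact sites thus alternated at the top of the order. The remaining 6 of the 10 strongest were II:5660074-5664321 (4248 bp), II:11761567-11762402 (836 bp), II:6888011-6892904 (4894 bp), II:5844542-5845363 (822 bp), II:8786561-8790401 (3841 bp) and II:14597799-14608857 (11059 bp). Their q-values ran from 4.87e-147 to 3.77e-116. In all, 7 of the 10 lay in the middle part, 3 in the right and none in the left.

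Compact strong sites were those under 2 kb among the strongest 10% of the list, and II had 6 of them. They made up 2.60% of the sites of II and 19.4% of its strong sites. The background had 14, or 1.60% of its sites and 13.6% of its strong sites, with 1 on III, 5 on IV, 7 on V and 1 on X. Chromosome V, with a similar number of sites, had 1 more of them than II. The 4 strongest of the 6 on II were 822 to 1159 bp wide and had q-values below 1e-100. No compact strong site of the background reached that level, but this contrast depends on the limit of 2 kb. A site of 2003 bp at V:12548575-12550577, just over that limit, had a q-value of 7.65e-153 at rank 28 of the list. Joining sites under 10 kb apart before the classes were drawn left 3 compact strong sites on II. Their share of sites was then 5.61 times that of the background, against 1.62 times as listed, on very few sites.

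**Figure D5:**
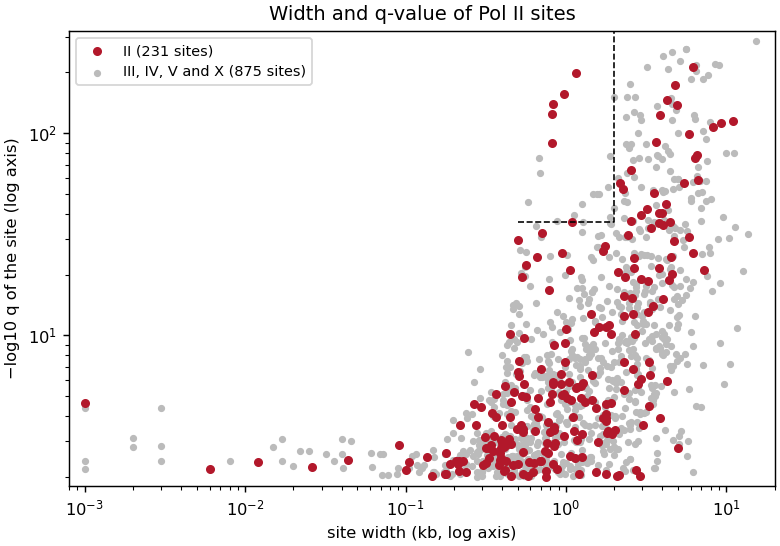
Points give the width of each site in kb (x axis, log scale) and the −log10 of the authors' q-value (y axis, log scale). The 231 sites of chromosome II are in red and the 875 sites of III, IV, V and X in grey. The dashed corner encloses compact strong sites, 6 on II and 14 on the others, and the 4 highest points in that corner are on II.

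The plot of width against strength shows a broad rise of strength with width and a few sites of II well above it. The Spearman correlation of width with −log10 q over the 231 sites was 0.644, against 0.706 on III, 0.692 on IV, 0.602 on V and 0.603 on X. Both measures come from the same reads and the same caller, so this is a description of the list. Among the strongest 5% of the list 17 sites were on II, of which 5 were under 2 kb and 4 under 1 kb. The background had 54 such sites, of which 2 were under 2 kb and 1 under 1 kb.

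The strongest compact site, at II:5543296-5544454, stood alone, with 116 kb free of sites on its left and 44.9 kb on its right. The 822-bp site at II:5844542-5845363 (q-value 2.74e-124) was likewise alone, with gaps of 132 and 107 kb. The 970-bp and 836-bp sites at II:11756278-11757247 and II:11761567-11762402 were a close pair of equals, with q-values of 2.52e-156 and 4.87e-141. Between them lay a 526-bp site with a q-value of 2.55e-04, at gaps of 1.89 and 1.90 kb, so the 3 formed a group of 6.12 kb with a weak site midway. The other 2 were an 824-bp site at II:12944266-12945089 (5.27e-90), with gaps of 145 and 48.8 kb, and a 1090-bp site at II:13668919-13670008 (4.52e-37), with gaps of 174 and 154 kb. That last one, at rank 195 of the list, was just inside the limit of 196.

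Just outside the limit by strength were a 711-bp site at II:11166669-11167379 (8.05e-33, rank 225) and a 501-bp site at II:11223958-11224458 (3.05e-30, rank 249). A 1746-bp site at II:7790269-7792014 (2.30e-28, rank 253) came next. The strongest compact sites of the background were on V, at V:5700003-5701877 (1875 bp, 1.56e-77) and V:9088612-9089289 (678 bp, 2.63e-76). Of the 6 on II, 5 had lower q-values than either of these. The 2003-bp site at V:12548575-12550577 (7.65e-153) was just outside the limit by width. All 6 compact strong sites together covered 5.70 kb, or 1.45% of the bases under sites on II.

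Broad sites, of 3 kb or more, numbered 42 on II (18.2%), against 23.7% in the background. The share was 25.5% on III, 18.3% on IV, 26.1% on V and 29.0% on X, so II had the smallest share of the 5, next to an almost equal IV. The 42 covered 203 kb, or 51.7% of all bases under sites on II, with a median width of 4262 bp. Of the 42, 20 were among the strongest 10% of the list, 18 were in the stronger 983 sites without being among the strongest 10%, and 4 were weaker. From left to right the 3 equal parts held 5, 23 and 14 of them.

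Sites of 5 kb or more numbered 12 on II. The widest, at II:14597799-14608857, was 11059 bp with a q-value of 3.77e-116, and it stood alone with 190 kb free of sites on each side. It lay in the last of the 10 equal parts of the span, in contrast to the left end, where no site exceeded 4565 bp in the first 4 Mb. Next were II:8011941-8021251 (9311 bp, 4.96e-113) and II:9597508-9605797 (8290 bp, 3.65e-108). The fourth, II:5334180-5341404 (7225 bp), had a much weaker q-value of 9.31e-22 at rank 319, and the fifth was II:7342773-7349394 (6622 bp, 3.54e-59). Width of this order was thus not always accompanied by a top rank.

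Width without strength was rarer. The widest site of II among the weaker 984 of the list was 4982 bp at II:8128002-8132983, with a q-value of 0.00171. It was followed by II:1233006-1236867 (3862 bp, 1.26e-04), which stood between empty stretches of 385 and 534 kb. The others were II:7887876-7891152 (3277 bp, 3.36e-05), II:8184995-8188018 (3024 bp, 2.40e-04) and II:8927308-8930184 (2877 bp, 0.00976). Of these 5, 4 lay between 7887876 and 8930184, in the crowded middle part.

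Set against background sites of like rank, the sites of II were narrower at the median in each of the 5 stronger of 10 equal rank classes of the list. In the strongest class the median width was 3841 bp on II and 4061 bp in the background, and in the second 2648 bp on II and 2924 bp in the background. In the 4th class it was 985 bp on II (9 sites) and 1680 bp in the background. From the 6th class on the order was mixed, with 1073 bp on II and 981 bp in the background in the 6th, 386 bp on II and 458 bp in the background in the 9th, and 562 bp on II and 438 bp in the background in the 10th. Each class held between 9 and 31 sites of II, so the single medians rest on few sites.

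The narrow sites of II were many but held little of its covered length. Sites under 1 kb numbered 119 (51.5%) and held 15.6% of the covered bases, and the 60 sites under 500 bp (26.0%) held 4.61%. The 10 widest sites alone held 18.8%. Sites under 200 bp numbered 14 (6.06%), the same share as in the background, and 5 sites were under 50 bp. The smallest was a single base at position 11048967 with a q-value of 2.23e-05, followed by 6 bp at II:6381907-6381912 (0.00653) and 12 bp at II:1771281-1771292 (0.00441). A site of 26 bp at II:8081105-8081130 (0.00570) and one of 44 bp at II:15223440-15223483 (0.00382) completed them. These widths are those of the deposited list.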

How the data were processed

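Pol II ChIP-seq and input libraries of fed L1 larvae were compared by the authors with PeakSeq, per the labels, and the deposited list gives each site's start, end and q-value on build WS180, per the file headers. For the aligner, the caller version, the handling of replicates and the sequencing depth, the sources used here say nothing. The q-values were used only to rank and describe sites. Coordinates were read as deposited, start and end inclusive, and a site was placed by its midpoint. Widths, gaps (bases between neighbouring sites) and shares were computed with Python 3.11.15, numpy 2.4.6, pandas 2.3.3 and scipy 1.17.1, and drawn with matplotlib 3.10.9. Simulated lists were used to test the counts of sites in the middle part, of grouped sites, of empty stretches and of joined sites. The other procedures were not tested in this way. Strong means the strongest 10% of the list, compact under 2 kb, broad 3 kb or more, a group 3 or more sites with gaps under 10 kb, and an empty stretch a gap of 200 kb or more. Named were the 10 strongest and 5 widest sites, all compact strong ones, the 5 widest among the weaker sites, the 5 longest empty stretches, the 5 largest groups, the fullest and emptiest megabase, and the first and last site. Further sites and windows were named after their values were seen. The sites and definitions were chosen with earlier results of these data known. Genes and sequences under the sites were not analysed here, since the gene table at hand is on another build.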

Additional observations from a re-analysis of the deposited data

How the results depend on the processing

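No site has a value for a single replicate, so the repeatability of weak and very short sites was not tested, and a stretch without sites may hold polymerase below what this unknown depth could detect. No paired analysis was possible because samples were merged into 1 list before deposit. Of 17 results, 103 alternatives were computed, with 67 close to the value reported, 24 moved and 12 on the other side of 1. Close was a wide class, as a density ratio from 0.787 to 1.77 counted as close to 1.18. Some alternatives used another unit, a larger part of the span or another size limit, and so measured another quantity. These counts are therefore no measure of how stable the results are. Alternatives for the right over left ratio were chosen after seeing the data. So were the ratios to the background at other limits for groups, broad sites and empty stretches.

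With the stronger 983 sites alone, II had 7.39 sites per Mb, a median width of 2298 bp, a median gap of 60 kb and 2.73% of sites in groups (0.230 of the background share). Expressed as covered bases the density was 2.58% of the span. Joining sites under 10 kb apart gave a median width of 1919 bp, a median gap of 47.8 kb and 3 compact strong sites (5.61 times the background share), and groups then have no value by construction. Joining under 500 bp gave 3.03 times for compact strong sites and 1.35 times for groups, against 0.951 times as listed. The middle 3 of 5 equal parts held 81.4% of sites. Groups held 17.3% with gaps under 5 kb (1.03 times the background) and 45.9% under 20 kb (1.17 times). Compact strong sites numbered 16 among the strongest 20%, and their share over background was 9.47 among the strongest 5% and 3.79 under 1 kb. All these ratios for compact strong sites rest on few sites. Among the strongest 5% there were 5 on II and 2 in the background, and under 1 kb there were 4 in each. There were 12 sites of 5 kb or more and 49 gaps of 100 kb or more (1.07 times the background per 10 Mb). The right over left ratio became 2.04 with the span cut in 2 equal parts.

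Against single chromosomes, the density ratio was 0.998 with III, 0.831 with IV and 1.83 with X (1.18 pooled). The middle share ratio was 0.949 with III, 1.13 with IV, 0.818 with V and 1.34 with X (1.01 pooled). The gap ratio was 1.10 with IV and 0.413 with X (0.708 pooled). The group ratio was 1.05 with V and 2.62 with X. The compact strong ratio was 5.40 with III, 0.809 with V and 3.58 with X (1.62 pooled), where III and X had only 1 such site each. The ratios for median width (0.751) and broad sites (0.769) stayed below 1 under every alternative run, and that for empty stretches (0.780) under all but the limit of 100 kb. The width ratio came nearest to 1 among the stronger 983 sites (0.928) and the broad ratio against IV (0.992).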
